A study of Homo sapiens with 9 samples.

Results

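The genes described here encode the zinc-dependent proteases of the cell surface and matrix together with their inhibitors, in MDA-MB-231, a human breast cancer cell line that lacks hormone receptors and HER2 amplification. Members were taken by symbol from the gene table of the array platform, as genes named MMP, TIMP, ADAM or ADAMTS with a number, each represented by its row with the highest mean. The rule found 44 of the 14884 named genes, made up of 20 MMP, 4 TIMP and 20 ADAM genes. It found 0 ADAMTS genes, which were not analysed here, and MMP2, MMP3, MMP7 and MMP9 were not analysed here either. Genes were picked by name, with earlier results of these data known, and the row for each gene by its measured mean.

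The study addressed which BET bromodomain inhibitors suit triple-negative breast cancer. Total RNA was hybridised to 9 Affymetrix Human Gene 2.0 ST arrays, 3 per group. The groups were MDA-MB-231 cells given 500 nM JQ1 for 12 h, the same line given 500 nM JQ1 for 24 h, and controls with no agent at time 0. JQ1 binds the bromodomains of the BET proteins, readers of acetylated histones, and releases them from chromatin. No solvent is named for the controls, which have 1 time only, so solvent, time in culture and JQ1 cannot be told apart. All groups are cultures of 1 line, and nothing says whether the 3 samples of a group were grown separately. The p-values therefore rest on variation among these arrays, part or all of which may be technical.

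Matrix metalloproteinases (MMPs) cut collagens, proteoglycans and one another's inactive precursors, and the membrane-type MMPs do so while anchored at the cell surface. The tissue inhibitors of metalloproteinases (TIMPs) bind the active site of MMPs and, for TIMP3, of several ADAMs. The ADAM proteases release growth factors, cytokines and receptor ectodomains from the membrane, and several family members have no working active site. In breast cancer cells these enzymes are best known for matrix invasion and for the release of ligands of the epidermal growth factor receptor.

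The values are log2 expression values per gene as deposited. A gene was called at a limma p-value under 0.05 after Benjamini-Hochberg adjustment over all 14884 genes, and differences are log2 differences with the standard error (SE) of that fit. A value is a level on the array's log2 scale, and levels of different genes are not compared because each has its own probes. No detection calls were used here. The lower quartile of the table lay between 3.68 and 3.72, and values in that region are among the dimmest of the table. In the identity check, the mesenchymal markers averaged 7.06 to 12.25 by gene, with VIM at 10.54 and AXL at 11.73. Of the luminal and epithelial markers, the hormone receptors ESR1 and PGR averaged 5.04 and 4.09, FOXA1 4.95, EPCAM 6.26, GATA3 6.68 and KRT19 7.85. Of the markers of other cell types, the fibroblast genes DCN and LUM averaged 2.99 and 3.36, and the endothelial genes PECAM1, KDR and VWF 4.26 to 4.97. CD68, a lysosomal gene used as a leukocyte marker, averaged 11.66, while CD14 averaged 4.31. The mean over the 5 of 6 mesenchymal markers ran from 9.71 to 9.86 in the JQ1 12 h arrays, from 9.65 to 9.87 in the JQ1 24 h arrays and from 9.82 to 9.91 in controls. That over the 6 of 8 luminal and epithelial markers ran from 5.66 to 5.91 in the JQ1 12 h arrays, from 5.73 to 5.90 in the JQ1 24 h arrays and from 5.76 to 5.82 in controls. Single markers were called, with GATA3 lower at both times, EPCAM lower at 12 h, and ZEB1 lower and KRT19 higher at 24 h, and their part in the results below was not tested.

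Control 3 stood apart from the other controls, and by the SD over the members it lay nearer the JQ1 arrays. Over the 44 members its values differed from those of the 6 JQ1 arrays with an SD of 0.219 to 0.328, and from controls 1 and 2 with SDs of 0.598 and 0.624. Controls 1 and 2 differed from each other with an SD of 0.131, and from the JQ1 arrays with SDs of 0.527 to 0.626. Not all members shared this, and the largest gaps to controls 1 and 2 were those of TIMP4 (−2.78) and MMP1 (−1.84). For TIMP2, TIMP3, MMP15, MMP16 and ADAM10, Control 3 lay outside the JQ1 range, on the side of the other controls. Over all rows of the table, Control 3 differed from the JQ1 arrays with SDs of 0.314 to 0.404, and from controls 1 and 2 with SDs of 0.385 and 0.389. The results for the members called are therefore given with and without Control 3. The sample titles give no reason to leave it out, and the choice rests on these same values. Where Control 3 lies near the JQ1 arrays, leaving it out enlarges the difference and shrinks the SE. The p-values without Control 3 are therefore descriptive and are not separate evidence of a change.

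**Figure D1:**
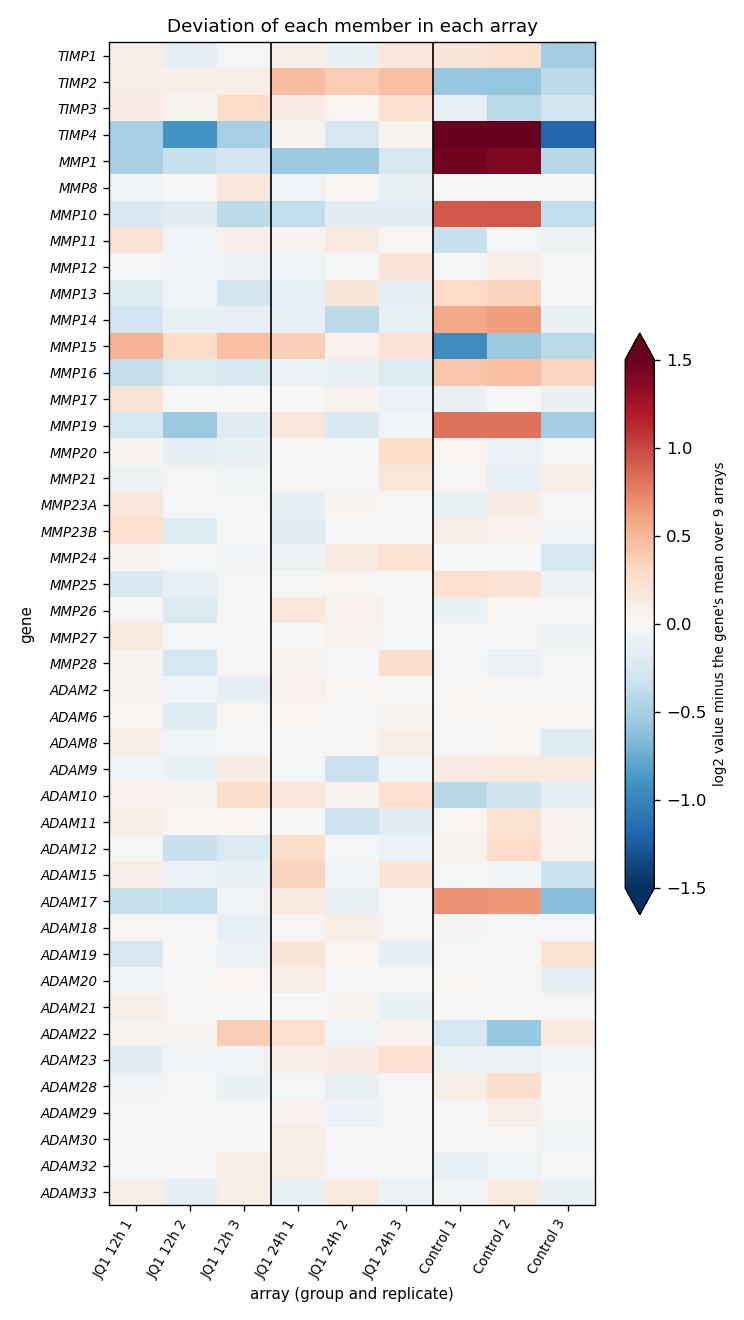
Deviation of each of the 44 members in each of the 9 arrays. Colours give the log2 value minus the gene's own mean over the 9 arrays, columns are arrays by group and replicate, and colours saturate at 1.5 in either direction. MMP1, MMP10, MMP14, MMP19, TIMP4 and ADAM17 are high in controls 1 and 2 and low in Control 3 and in the JQ1 arrays, while TIMP2, MMP15 and MMP16 separate the JQ1 arrays from all 3 controls.

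With all arrays, the members called were the same at 12 h and 24 h. At 12 h of JQ1, TIMP2, TIMP3, MMP15 and ADAM10 rose and MMP16 fell, which is 5 of 44 members or 11.4%, against 7.93% of all genes (3.54% higher and 4.39% lower). At 24 h the same 5 genes were called in the same directions, 11.4% of the members against 11.5% of all genes (5.17% higher and 6.34% lower). The comparisons share their controls. The share of members called was near that of all genes at 24 h. The median member differed by −0.03 at 12 h and 0.02 at 24 h, against 0.01 and 0.01 for all genes. In bulk RNA of this kind, fewer cells of a type and less RNA per cell cannot be told apart. Without Control 3, 14 members were called at 12 h (31.8%, against 20.1% of all genes), 5 up and 9 down, where 9.57% of all genes were higher and 10.5% lower. At 24 h 12 were called (27.3%, against 20.9%), 5 up and 7 down, where 9.61% of all genes were higher and 11.3% lower. Both sets held the 5 genes called with all arrays.

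**Figure D2:**
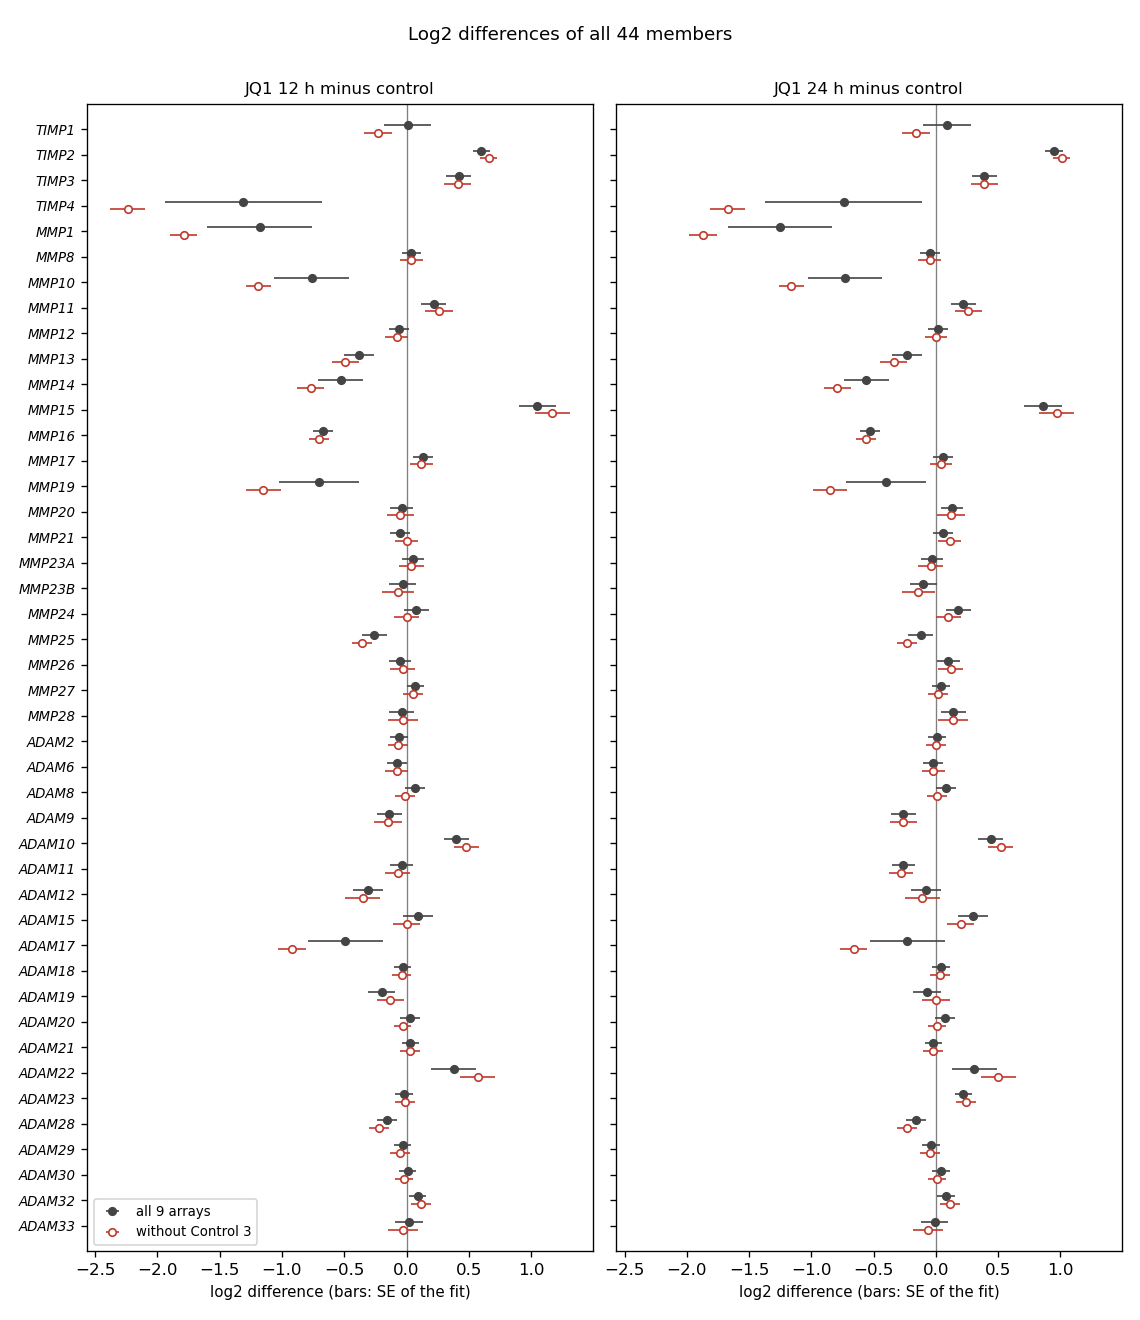
Log2 differences of the 44 members, JQ1 12 h minus control on the left and JQ1 24 h minus control on the right. Filled points are the fit of all 9 arrays and open points the fit without Control 3, and bars are the SE of the fit. TIMP4 lies at −1.31 with all arrays and −2.24 without Control 3 at 12 h, MMP1 at −1.18 and −1.79, while TIMP2, TIMP3, MMP15 and MMP16 hardly move between the fits.

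Promoters of some members are shown here as a description, and no link between a promoter and a direction of change was tested. RefSeq promoter sequences (GRCh38.p14, 250 bases before to 50 after the gene start) were matched for 26 of the 44 members, and 9 of the 14 members described by array were among them. MMP1, MMP13, MMP16, MMP19 and TIMP2 were not among the 26. The sequences below are those of MMP10 and TIMP4, which were lower in JQ1 arrays than in controls 1 and 2, and of MMP15 and ADAM10, which were higher than in all controls. MMP10 and TIMP4 were not called with all arrays, and MMP16, the only member called lower with all arrays, had no window. Capitals mark a TATA box (TATAAA) or a GC box (GGGCGG or its reverse complement CCGCCC). The MMP10 window lies at chr11:102780579-102780878, minus strand, that of TIMP4 at chr3:12158863-12159162, minus strand, that of MMP15 at chr16:58025504-58025803, plus strand, and that of ADAM10 at chr15:58749658-58749957, minus strand.
MMP10: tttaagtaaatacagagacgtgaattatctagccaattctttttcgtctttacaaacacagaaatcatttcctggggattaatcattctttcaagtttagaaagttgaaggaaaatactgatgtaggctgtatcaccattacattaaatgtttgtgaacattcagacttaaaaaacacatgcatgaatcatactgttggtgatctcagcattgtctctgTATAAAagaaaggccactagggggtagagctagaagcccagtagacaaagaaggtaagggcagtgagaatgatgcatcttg
TIMP4: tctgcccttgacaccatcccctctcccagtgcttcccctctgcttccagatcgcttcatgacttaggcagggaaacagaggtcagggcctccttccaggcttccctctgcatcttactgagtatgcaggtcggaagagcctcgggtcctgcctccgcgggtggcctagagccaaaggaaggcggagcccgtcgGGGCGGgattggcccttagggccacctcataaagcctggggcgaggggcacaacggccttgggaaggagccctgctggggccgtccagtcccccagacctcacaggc
MMP15: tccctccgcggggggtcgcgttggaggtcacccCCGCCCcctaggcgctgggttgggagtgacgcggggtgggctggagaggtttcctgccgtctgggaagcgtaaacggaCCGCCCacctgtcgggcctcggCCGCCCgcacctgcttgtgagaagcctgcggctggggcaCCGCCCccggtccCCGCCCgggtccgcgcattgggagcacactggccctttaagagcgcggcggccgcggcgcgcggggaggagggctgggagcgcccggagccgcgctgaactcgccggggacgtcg
ADAM10: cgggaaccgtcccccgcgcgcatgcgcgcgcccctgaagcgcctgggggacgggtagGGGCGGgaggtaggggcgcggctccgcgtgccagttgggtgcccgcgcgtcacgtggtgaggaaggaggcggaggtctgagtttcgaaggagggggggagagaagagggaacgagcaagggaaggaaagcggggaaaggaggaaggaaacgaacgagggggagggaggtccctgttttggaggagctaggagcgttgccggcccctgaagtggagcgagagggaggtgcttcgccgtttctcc

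The MMP10 window had a GC content of 36.3%, 2 CpG dinucleotides and a TATA box starting 31 bases before the gene start. The MMP15 window had a GC content of 75.3%, 39 CpG dinucleotides and 5 GC boxes. TIMP4 (64.0% GC, 12 CpG) and ADAM10 (68.0%, 30 CpG) each held 1 GC box. Of members not shown, ADAM17 (74.7% GC, 36 CpG, 3 GC boxes) and MMP14 (55.0%, 10 CpG, 1 GC box) were also lower than in controls 1 and 2. TIMP3 (72.7% GC, 31 CpG, 5 GC boxes) was higher than in all controls. The AP-1 motif TGAGTCA, the site through which several MMP genes are known to be induced, was in 0 of the 26 member windows. It was in 1344 of all 27305 promoters (4.92%) and in 3.85% of those of named genes, so 0 of 26 says little. MMP1 and MMP13 had no window to search. TATAAA was in 6 of 26 member windows (23.1%), 12.0% of all promoters and 8.49% of the 10749 promoters of named genes. GGGCGG was in 15 of 26 (57.7%), 44.6% and 60.5%. Both strands were searched and each motif was counted on its own. The TATA and GC boxes were chosen after the sequences were seen, and a match only describes the window.

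Of the 4 inhibitors, TIMP2 and TIMP3 rose with all arrays, and TIMP4 fell only in the fits without Control 3. That is 50% called at each time with all arrays, against 7.93% of all genes at 12 h and 11.5% at 24 h. Without Control 3, 75% were called at each time, against 20.1% of all genes at 12 h and 20.9% at 24 h. The group has only 4 genes. TIMP2, a soluble inhibitor that also takes part in activating proMMP2 at the cell surface, rose. It stood at 9.36, 9.35 and 9.37 in the JQ1 12 h arrays, at 9.74, 9.66 and 9.72 in the JQ1 24 h arrays and at 8.70, 8.69 and 8.87 in the controls. Every JQ1 value lay above every control value, and every 24 h value above every 12 h value. The difference from control was 0.60 at 12 h (SE 0.07, 1.52-fold, limma adjusted p = 0.0023) and 0.95 at 24 h (SE 0.07, 1.93-fold, adjusted p = 0.00018), and without Control 3 it was 0.66 and 1.01. JQ1 24 h minus JQ1 12 h was 0.35 (SE 0.07), which did not pass the test over all genes (adjusted p = 0.38, and 0.094 without Control 3). The same step is seen in the plot of members called with all arrays, where the groups of TIMP2 form 3 separate levels.

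TIMP3, the matrix-bound inhibitor that also blocks ADAM17, rose less. Its values were 6.80, 6.72 and 6.95 at 12 h, 6.78, 6.70 and 6.91 at 24 h and 6.55, 6.27 and 6.39 in controls. The groups did not overlap, but the lowest JQ1 value, 6.70, was close to the highest control value. The differences were 0.42 (SE 0.10, adjusted p = 0.036) and 0.39 (SE 0.10, adjusted p = 0.037), and without Control 3 they were 0.41 (adjusted p = 0.029) and 0.39 (adjusted p = 0.039). A second row of TIMP3, with a mean of 3.80, was not called at either time, and the row used was not called at either time when p-values were adjusted over all 53617 rows of the table (adjusted p = 0.075 and 0.074). The TIMP3 call was lost at 12 h without control 2, any single JQ1 12 h array or JQ1 24 h replicate 1, and at 24 h without control 2, JQ1 12 h replicate 1 or 2, or JQ1 24 h replicate 1 or 3 (adjusted p up to 0.13 in both comparisons).

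TIMP4, a secreted inhibitor best known from heart tissue, depended on Control 3. It stood at 6.69, 6.29 and 6.69 at 12 h, at 7.22, 6.93 and 7.22 at 24 h and at 8.89, 8.71 and 6.01 in controls 1, 2 and 3. Control 3 lay below all 6 JQ1 arrays, and controls 1 and 2 above all of them. With all arrays the differences of −1.31 (SE 0.63) and −0.74 (SE 0.63) were not called (adjusted p = 0.27 and 0.54). Without Control 3, TIMP4 fell by 2.24 at 12 h (SE 0.14, 4.73-fold, adjusted p = 1.5e-05) and fell by 1.67 at 24 h (SE 0.14, 3.19-fold, adjusted p = 6.6e-05). Every 24 h value was above every 12 h value, with a 24 h minus 12 h difference of 0.57 that was not called (adjusted p = 0.93, and 0.14 without Control 3).

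TIMP1, the most studied inhibitor in tumours, was not called in any fit. Its values were 10.47, 10.22 and 10.34 at 12 h, 10.47, 10.26 and 10.54 at 24 h and 10.55, 10.61 and 9.84 in controls. The JQ1 arrays lay between Control 3 and the other controls. The differences were 0.01 (SE 0.19) and 0.09 (SE 0.19) with all arrays and −0.23 and −0.16 without Control 3.

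**Figure D3:**
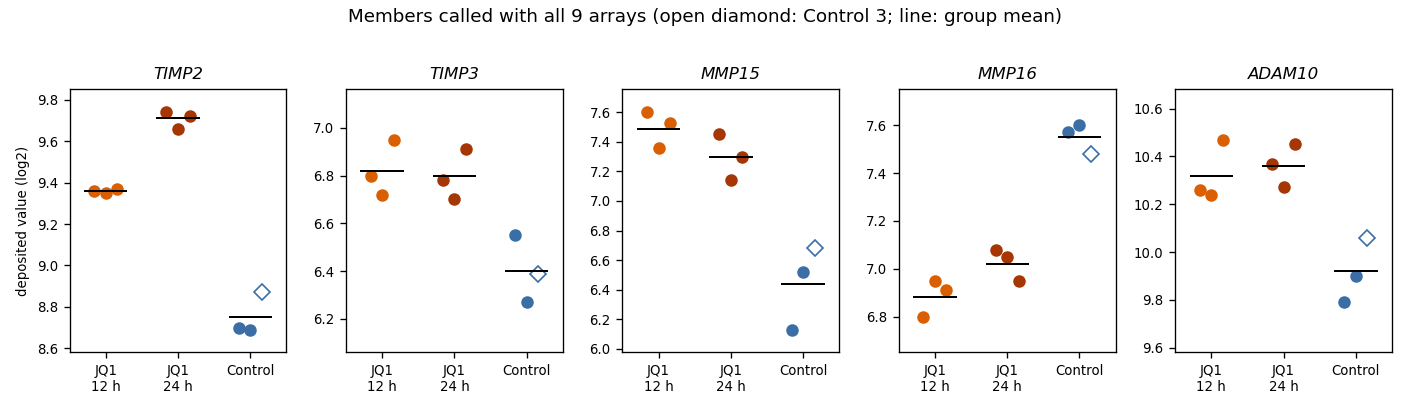
Values of the 5 members called with all 9 arrays, on the deposited log2 scale, by group (JQ1 12 h, JQ1 24 h, control). Each point is an array, the open diamond is Control 3 and the line is the group mean. The JQ1 values lie above all control values for TIMP2, TIMP3, MMP15 and ADAM10 and below them for MMP16, and TIMP2 is at 9.36 at 12 h, 9.71 at 24 h and 8.75 in controls on average.

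Among the 6 membrane-type MMPs, MMP15 rose and MMP16 fell with all arrays, and 4 were not called. That is 33.3% called at each time, against 7.93% of all genes at 12 h and 11.5% at 24 h, in a group of only 6 genes. MMP15, a transmembrane protease also called MT2-MMP, had values of 7.60, 7.36 and 7.53 at 12 h, 7.45, 7.14 and 7.30 at 24 h and 6.13, 6.52 and 6.68 in controls. The lowest JQ1 value, 7.14, lay above the highest control. It was 2.07-fold higher than control at 12 h (log2 1.05, SE 0.15, adjusted p = 0.004) and 1.81-fold higher at 24 h (log2 0.86, SE 0.15, adjusted p = 0.0067), and the log2 differences without Control 3 were 1.17 and 0.97 (adjusted p = 0.00038 and 0.001). This was the highest difference of any member at 12 h, and at 24 h only that of TIMP2 was higher.

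MMP16, or MT3-MMP, stood at 6.80, 6.95 and 6.91 at 12 h, 7.08, 7.05 and 6.95 at 24 h and 7.57, 7.60 and 7.48 in controls. All 3 controls lay above all JQ1 arrays, Control 3 included. The differences were −0.67 (SE 0.08, 1.59-fold lower, adjusted p = 0.002) and −0.53 (SE 0.08, 1.44-fold lower, adjusted p = 0.0031), and without Control 3 they were −0.70 and −0.56 (adjusted p = 0.00037 and 0.0012). TIMP2, MMP15 and MMP16 were called in both comparisons with control in every fit tried, with any single array left out included.

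MMP14, or MT1-MMP, the membrane protease that activates proMMP2 and cuts fibrillar collagen, had 8.02, 8.21 and 8.18 at 12 h, 8.21, 7.92 and 8.21 at 24 h and 8.88, 8.93 and 8.21 in controls 1, 2 and 3. Control 3 was level with the highest JQ1 arrays. The differences with all arrays, −0.53 (SE 0.18, adjusted p = 0.11) and −0.56 (SE 0.18, adjusted p = 0.083), were not called. Without Control 3 MMP14 fell by 0.77 at 12 h (SE 0.11, 1.7-fold, adjusted p = 0.00097) and fell by 0.79 at 24 h (SE 0.11, 1.73-fold, adjusted p = 0.00076).

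MMP25, a protease held at the surface by a lipid anchor, was called without Control 3 at 12 h (log2 −0.36, adjusted p = 0.012) and not at 24 h (−0.23, adjusted p = 0.086). Its 3 rows did not share a direction at 12 h with all arrays, at −0.26 for the row used and −0.14 and 0.07 for the others. MMP17 and MMP24 were not called in any fit.

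Several secreted MMPs separated controls 1 and 2 from all other arrays. MMP1, interstitial collagenase, which makes the first cut in fibrillar collagen, had 9.89, 10.04 and 10.09 at 12 h, 9.82, 9.83 and 10.14 at 24 h and 11.82, 11.78 and 9.96 in controls 1, 2 and 3. Control 3 lay inside the JQ1 range. With all arrays the differences were −1.18 (SE 0.42, adjusted p = 0.13) and −1.25 (SE 0.42, adjusted p = 0.091). Without Control 3, MMP1 fell by 1.79 at 12 h (SE 0.11, 3.47-fold, adjusted p = 1.3e-05) and fell by 1.87 at 24 h (SE 0.11, 3.65-fold, adjusted p = 8.8e-06).

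MMP10, stromelysin 2, which can activate procollagenases, was at 3.32, 3.39 and 3.16 at 12 h, 3.18, 3.39 and 3.39 at 24 h and 4.47, 4.49 and 3.19 in controls. The JQ1 values and Control 3 lay under the lower quartile of the table, where differences may understate a change in RNA. Without Control 3 the differences were −1.19 (SE 0.10, adjusted p = 5.5e-05) and −1.16 (SE 0.10, adjusted p = 5.9e-05), and with all arrays −0.76 and −0.73 (adjusted p = 0.17 and 0.16).

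MMP13, collagenase 3, had 3.58, 3.69 and 3.48 at 12 h, 3.64, 3.94 and 3.62 at 24 h and 4.05, 4.09 and 3.75 in controls. Its 12 h values lay below all controls, with a difference of −0.38 (SE 0.12, adjusted p = 0.097) that was not called. At 24 h with all arrays the groups overlapped, and the difference of −0.23 (SE 0.12, adjusted p = 0.29) was not called. Most JQ1 values and Control 3 lay near the lower quartile of the table, among its dimmest values. Without Control 3 it was called at 12 h (−0.49, adjusted p = 0.013) and not at 24 h (−0.34, adjusted p = 0.061).

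MMP19, a secreted protease found in many normal tissues, had 6.01, 5.72 and 6.10 at 12 h, 6.44, 6.05 and 6.23 at 24 h and 7.09, 7.09 and 5.75 in controls. Controls 1 and 2 stood above all JQ1 arrays, and Control 3 at the low end of them. Without Control 3, MMP19 fell by 1.15 at 12 h (SE 0.14, adjusted p = 0.00039) and fell by 0.85 at 24 h (SE 0.14, adjusted p = 0.0019), and with all arrays it was not called (−0.70 and −0.40, adjusted p = 0.25 and 0.52).

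MMP1, MMP10 and MMP13 lie in 1 cluster of 9 MMP genes on chromosome 11, of which 7 were measured. In the RefSeq order the genes run MMP7, MMP20, MMP27, MMP8, MMP10, MMP1, MMP3, MMP12 and MMP13. With all arrays limma called 0 of the 7 at either time, while 3 at 12 h (42.9%, against 21.6% of all genes) and 2 at 24 h (28.6%, against 25%) had an unadjusted p under 0.05. Without Control 3 those 3 fell at 12 h (42.9%, against 20.1% of all genes called) and MMP10 and MMP1 at 24 h (28.6%, against 20.9%). The other 4 measured genes, MMP20 of tooth enamel, MMP27, the neutrophil collagenase MMP8 and the macrophage elastase MMP12, had values of 3.16 to 4.45 in all arrays and differences of −0.08 to 0.13. The 8 further MMPs not called in any fit, among them MMP11, MMP21, MMP23B and MMP28, had differences of −0.14 to 0.26. MMP23A is a transcribed pseudogene in RefSeq and a near copy of MMP23B, and probes may not separate them.

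**Figure D4:**
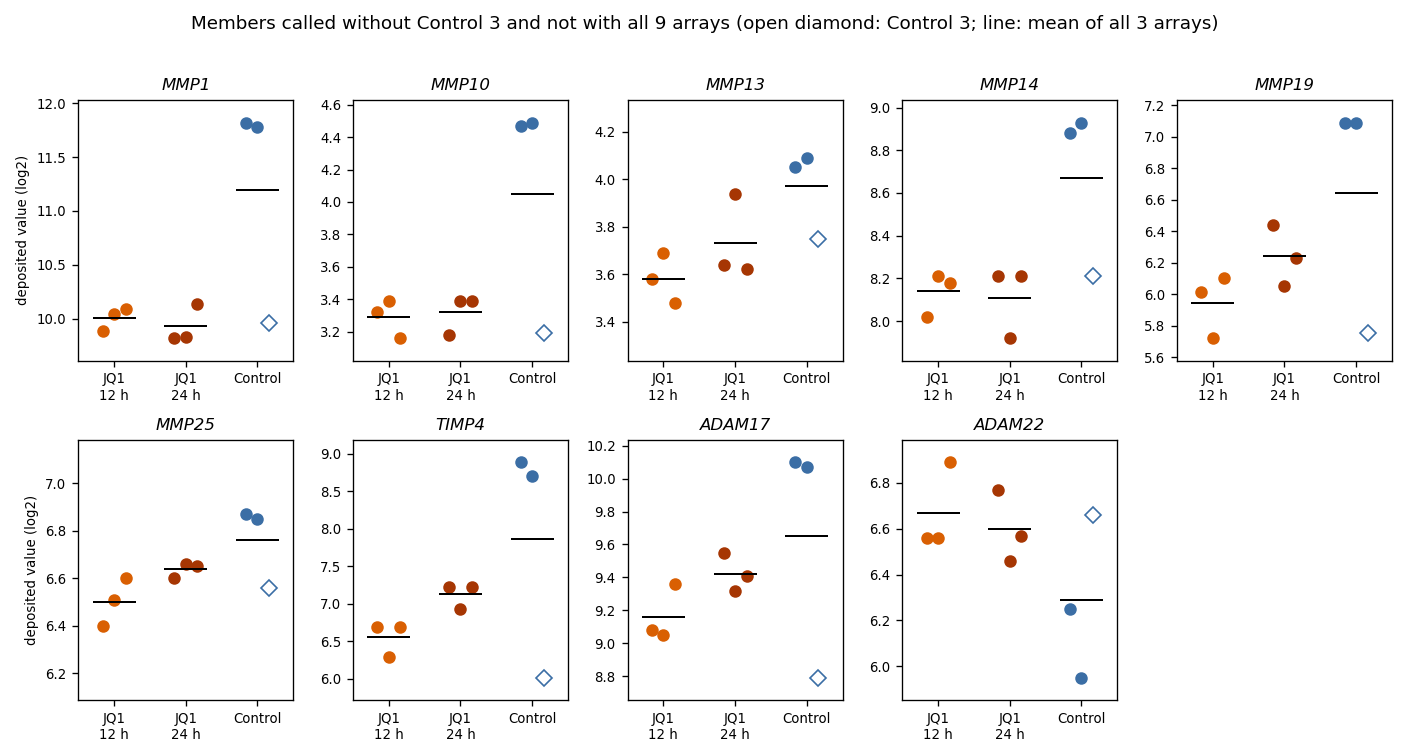
Values of the 9 members that limma called without Control 3 and not with all 9 arrays in the fit of 1 mean per group, on the deposited log2 scale, by group (JQ1 12 h, JQ1 24 h, control). Each point is an array, the open diamond is Control 3 and the line is the mean of all 3 arrays of the group. In 7 of the 9 genes Control 3 lies within the range of the 6 JQ1 arrays, and in TIMP4 and ADAM17 it lies below all of them, at 6.01 and 8.79. The way these genes were chosen favours such a position of Control 3, so the count is not a separate result.

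Of the 20 ADAM genes, only ADAM10 was called with all arrays (5.0%, against 7.93% of all genes at 12 h and 11.5% at 24 h). ADAM10, the sheddase that releases Notch and cadherin ectodomains, had 10.26, 10.24 and 10.47 at 12 h, 10.37, 10.27 and 10.45 at 24 h and 9.79, 9.90 and 10.06 in controls. Every JQ1 value was above every control. The rises were small, 0.40 (SE 0.10, 1.32-fold, adjusted p = 0.04) and 0.44 (SE 0.10, 1.36-fold, adjusted p = 0.021). At 12 h the call was lost without any single array other than Control 3 (adjusted p up to 0.14), and at 24 h without control 1, control 2 or JQ1 24 h replicate 1 or 3 (up to 0.087). Without Control 3 the rises were 0.48 and 0.52 (adjusted p = 0.0074 and 0.0048).

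ADAM17, the sheddase of TNF and of several ligands of the epidermal growth factor receptor, went the other way against controls 1 and 2. It had 9.08, 9.05 and 9.36 at 12 h, 9.55, 9.32 and 9.41 at 24 h and 10.10, 10.07 and 8.79 in controls 1, 2 and 3. Control 3 was the lowest of all arrays. With all arrays the differences were −0.49 and −0.23 (SE 0.30 each, adjusted p = 0.42 and 0.73). Without Control 3, ADAM17 fell by 0.92 at 12 h (SE 0.11, 1.89-fold, adjusted p = 0.00046) and fell by 0.66 at 24 h (SE 0.11, 1.58-fold, adjusted p = 0.0027).

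ADAM22, a neural ADAM without protease activity that binds LGI proteins, had 6.56, 6.56 and 6.89 at 12 h, 6.77, 6.46 and 6.57 at 24 h and 6.25, 5.95 and 6.66 in controls. It was called higher without Control 3, by 0.57 (SE 0.14, adjusted p = 0.018) and 0.50 (SE 0.14, adjusted p = 0.032), and not with all arrays (0.38 and 0.31, adjusted p = 0.25 and 0.33). The remaining 17 ADAM genes were not called in any fit. Among them the 7 proteases ADAM8, ADAM9, ADAM12, ADAM15, ADAM19, ADAM28 and ADAM33 had differences of −0.35 to 0.30. The 7 genes known from testis or sperm, ADAM2, ADAM18, ADAM20, ADAM21, ADAM29, ADAM30 and ADAM32, had values of 2.99 to 4.19 in all arrays and differences of −0.07 to 0.12. The other 3 were the neural genes ADAM11 and ADAM23, with differences of −0.28 to 0.24, and ADAM6, a transcribed pseudogene.

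Between the times, 0 of 44 members were called for JQ1 24 h against JQ1 12 h with limma, against 0.00672% of all genes, and 0 without Control 3, against 0.148%. At an unadjusted p under 0.05 there were 3 members (6.82%, against 6.69% of all genes), ADAM11, ADAM23 and TIMP2. The differences ran from −0.21 for ADAM11 to 0.57 for TIMP4. The groups did not overlap for 4 members (9.09%, against 12.9% of all genes), with TIMP2, TIMP4 and ADAM23 higher and ADAM11 lower at 24 h (all genes 5.76% higher and 7.11% lower). Against control, the groups did not overlap for 8 members at 12 h (18.2%, against 22.2% of all genes), 4 of them higher and 4 lower, where 11.3% of all genes were higher and 10.9% lower. At 24 h there were 9 (20.5%, against 26.1%), 6 higher and 3 lower, where 13.3% of all genes were higher and 12.8% lower. Besides the called genes these were ADAM9, lower than all controls at both times, MMP13 and ADAM12, lower at 12 h, ADAM11, lower at 24 h, and ADAM23 and MMP11, higher at 24 h.

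Genes that work with these proteases were counted from a list of 52, of which 38 were measured. At 12 h 1 rose and 1 fell (5.26%, against 7.93% of all genes), and at 24 h 3 rose and 4 fell (18.4%, against 11.5% of all genes). Without Control 3 these counts were 3 up and 8 down at 12 h (28.9%, against 20.1% of all genes) and 3 up and 6 down at 24 h (23.7%, against 20.9%). RECK, a membrane-anchored inhibitor of several MMPs and of ADAM10, rose at both times. It had 6.91, 7.01 and 7.26 at 12 h, 7.27, 6.84 and 7.35 at 24 h and 6.56, 6.36 and 6.17 in controls, and the JQ1 arrays lay above all 3 controls. The differences were 0.70 (adjusted p = 0.029) and 0.79 (adjusted p = 0.014), and 0.60 and 0.69 without Control 3. IL6R, the interleukin 6 receptor, which ADAM10 and ADAM17 can shed, fell at both times (−0.60, adjusted p = 0.023, and −0.69, adjusted p = 0.01), with −0.74 and −0.82 without Control 3. FURIN, the convertase that removes the inhibitory prodomain of membrane-type MMPs and ADAMs, fell at 24 h (−0.68, adjusted p = 0.044, and −0.93 without Control 3). It stood at 8.0, 7.77 and 7.82 at 24 h and at 8.82, 8.77 and 8.05 in controls, with Control 3 next to the JQ1 arrays. EREG, an epidermal growth factor receptor ligand released by ADAM17, also fell at 24 h (−1.31, adjusted p = 0.038, and −1.78 without Control 3), with 9.20, 8.83 and 8.99 at 24 h and 10.76, 10.81 and 9.37 in controls. The convertase PCSK5 (0.40) and the ADAMTS-like gene ADAMTSL5 (0.52) rose and ADAMTSL1 (−0.48) fell at 24 h. Of the 6 tetraspanins that escort ADAM10 to the membrane, limma called 0 against control in either fit, and 0 had an unadjusted p under 0.05 (all genes 21.6% at 12 h and 25% at 24 h with all arrays), with differences of −0.28 to 0.37. For JQ1 24 h against JQ1 12 h limma called 0 of the 6, and TSPAN10, TSPAN15 and TSPAN33 had an unadjusted p under 0.05 (3 of 6, against 6.69% of all genes).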

How the data were processed

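The deposited table gives log2 values, 1 column per array and 53617 rows. The log2 scale was inferred from the deposited values, which ran from 2.01 to 13.88 with array medians of 4.92 to 4.96. The submitters' processing notes name the Transcriptome Analysis Console, while its version, the background correction and the normalization are not given in the sources used here. The near-equal quartiles leave a shift common to most genes undetectable. The platform gene table names 16098 rows with 1 symbol, 0 with several and leaves 37519 unnamed. Of several rows of a gene (779 genes) the one with the highest mean was used, and all 44 members matched RefSeq (GRCh38.p14) by gene ID.

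Groups were taken from the sample titles. limma 3.58.1 in R 4.3.3 fitted 1 mean per group to all 9 arrays, followed by empirical Bayes moderation (3.14 prior degrees of freedom), with Benjamini-Hochberg adjustment over 14884 genes within each of 3 comparisons. Errors in the text are SEs of that fit, n = 3 per group unless Control 3 is left out. The procedure was run on simulated data with independent normal errors of equal spread in all groups. That setting has no array that departs as Control 3 does, so it does not test the calls that depend on Control 3. Described array by array were members called in any comparison, those called in both comparisons with control without Control 3, the 3 highest and 3 lowest differences, and TIMP1, TIMP2, TIMP3, TIMP4, MMP1, MMP10, MMP13, MMP14, ADAM10 and ADAM17. MMP25, and members whose groups did not overlap, were named after their values were seen. The members and lists were chosen with earlier results of these data known. No proteins were compared. The 3 arrays per group limit the precision.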

Additional observations from a re-analysis of the deposited data

How the results depend on the processing

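The comparisons were refitted under 19 alternatives. With all arrays 5 members were called in each comparison with control. Leaving out 1 array at a time gave 3 to 14 members at 12 h and 3 to 12 at 24 h, the highest counts without Control 3, and 0 between the times. At 12 h the count was 3 without control 2, any JQ1 12 h array or JQ1 24 h replicate 1, and at 24 h it was 3 without control 2 or JQ1 24 h replicate 1 or 3. Only the 2 groups compared, or all rows of the table tested, gave 3 at 12 h. TIMP2, MMP15 and MMP16 were among the calls in all of these fits, and the calls lost were those of TIMP3 and ADAM10. With the replicate number as a block the counts were 6 at 12 h, with MMP13 added (adjusted p = 0.048), and 5 at 24 h with all arrays, and 14 and 12 without Control 3. The numbers were not shown to pair the samples. Deviations of same-numbered arrays correlated between −0.3163 and 0.2244, and those of differently numbered arrays between −0.2694 and 0.2896. With 3 arrays per group this check cannot exclude a pairing. Of 528 refits of single members, 461 kept direction and side of the threshold. These include members that were not called with all arrays and stayed so, and the number does not measure how stable the calls are. With 1 array left out, ADAM10 at 12 h was called in 1 of 9 fits and TIMP3 at 12 h in 4 of 9. With 1 array left out, TIMP1 ranged from −0.23 to 0.15 at 12 h and from −0.16 to 0.23 at 24 h. TIMP1 at 12 h was −0.23 without Control 3, −0.05 without JQ1 12 h replicate 1, −0.26 with the block and without Control 3 and −0.01 after quantile normalization, and at 24 h it was −0.16 without Control 3 and −0.18 with the block as well; the cause was not tested. The filter at 3.218 rests on 1 olfactory receptor gene; a filter at the median of all rows, 4.94, was chosen after seeing the data and left both counts at 5.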

Other observations

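Some members share their locus with another measured gene. WTAPP1, which overlaps MMP1 in the RefSeq gene table, had 5.45, 5.40 and 5.45 at 12 h, 5.34, 5.45 and 5.45 at 24 h and 5.77, 5.76 and 5.45 in controls 1, 2 and 3, so that its controls 1 and 2 stood above the other arrays as those of MMP1 did. Without Control 3 it was lower by 0.33 at 12 h (log2 −0.33, adjusted p = 0.012) and 0.35 at 24 h (log2 −0.35, adjusted p = 0.0091) by limma, and it was not called with all arrays (adjusted p = 0.21 and 0.14). The synapsin genes SYN1, SYN2 and SYN3, which overlap TIMP1, TIMP4 and TIMP3, were not called in either fit. SYN2 differed by −0.10 at 12 h without Control 3, against −2.24 for TIMP4. IAH1, which overlaps ADAM17, was lower by 0.32 at 12 h without Control 3 (log2 −0.32, adjusted p = 0.041) and was not called at 24 h. CEP295NL, which overlaps TIMP2, was not called (0.37, adjusted p = 0.063 at 12 h, and 0.31, adjusted p = 0.097 at 24 h). Whether probes of overlapping genes read one another's RNA was not tested.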
